A study of Mus musculus with 3 samples.

Results

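The regions described here are RARβ peaks that lie in densely marked H3K4me3 peaks of ordinary length, in the caudate putamen of the mouse brain. They were chosen by 3 measured values. A RARβ peak was taken when it shared at least 1 bp with an H3K4me3 peak, and that H3K4me3 peak had 300 or more tags per kb of its length and was shorter than 8000 bp. This gave 2503 of the 8075 RARβ peaks, a share of 31.0% (Wilson 95% interval 30.0 to 32.0). Beside them stood 2232 RARβ peaks in H3K4me3 peaks below 8000 bp of lower density, here called weakly marked, 509 in H3K4me3 peaks of 8000 bp or more, and 2831 outside any H3K4me3 peak. The 2503 peaks held 31.8% of the tags in RARβ peaks and 1.45% of all filtered RARβ tags. H3K4me3 peaks are called promoters here because of the mark alone, and 97.5% of the dense ones had an FDR of at most 5% from the authors' peak caller. The H3K4me3 peaks of the weakly marked sites were less certain calls, with a median FDR of 15.2%. The rule used the overlap and the tags and length of the H3K4me3 peak, so these are given as description. It did not use RARβ tags, fold or summit position. The place of the promoters relative to annotated start sites and genes was not analysed here.

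RARβ is one of the retinoic acid receptors, nuclear receptors that bind DNA as heterodimers with retinoid X receptors. They recognise repeats of a short motif, recruit corepressors without ligand and exchange them for coactivators when retinoic acid binds. RARβ is the form of the receptor best known from the striatum, where it acts in the development and function of medium spiny neurons. H3K4me3 is histone H3 trimethylated at lysine 4 by enzymes of the SET1 and MLL families. It marks the nucleosomes that flank the nucleosome-poor stretch at active and poised promoters, many of them in CpG islands.

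Chromatin immunoprecipitation with sequencing was done on the caudate putamen of male wild-type mice on a mixed C57BL/6J x 129SvEms/j background, bred from heterozygous crosses as littermates of RARβ-null mutants. The study has 3 libraries, 1 each with antibodies against RARβ (sc-552), H3K4me3 (ab8580) and GFP (ab290). All 3 share genotype, sex, strain and tissue, and the labels give no age and no number of animals. The tissue holds several cell types, so a peak does not show in which cells it arose, and in such tissue the number of cells bound and the binding per cell cannot be told apart. Only the RARβ and H3K4me3 peak lists were used; the library made with anti-GFP is not analysed here. The RARβ library kept 2237580 of 4994799 tags after redundant ones were removed. The H3K4me3 library kept 47461843 of 60367942, 21.2 times as many as the RARβ library. Peaks held 4.55% of the kept tags for RARβ and 48.2% for H3K4me3. With 1 library per antibody no value has a replicate error and no test was run. Tags are reads of amplified fragments, not independent molecules, so the intervals cover counting error only, and peaks within a library are not replicates.

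The H3K4me3 list held 10189 dense peaks shorter than 8000 bp, and 2298 of them held at least 1 of the RARβ peaks described here. That is 22.6% (Wilson 95% interval 21.8 to 23.4), against 13.1% of all 35971 H3K4me3 peaks. Among weakly marked peaks shorter than 8000 bp the share was 8.37% (8.04 to 8.72). Among the 473 H3K4me3 peaks of 8000 bp or more it was 60.7% (56.2 to 65.0). The intervals of the 3 classes did not overlap. Longer peaks have more room for a RARβ peak, so the shares were also read by density and by length.

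Below 300 tags per kb the share of H3K4me3 peaks with RARβ lay between 7.42% and 10.2%, in no steady order with density. It was 7.42% below 75 tags per kb, 9.61% at 75 to 100, 7.52% at 150 to 200 and 10.2% at 250 to 300. Above that value it was higher at each step, from 13.5% at 300 to 350 tags per kb, through 21.1% at 400 to 450 and 28.7% at 500 to 550, to 42.3% (Wilson 95% interval 35.7 to 49.2) at 600 and above. The last of these groups held 201 H3K4me3 peaks, 85 of them with RARβ. Median length also differed along this scale, from 2904.5 bp at 300 to 350 tags per kb to 4107 bp at 600 and above.

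**Figure D1:**
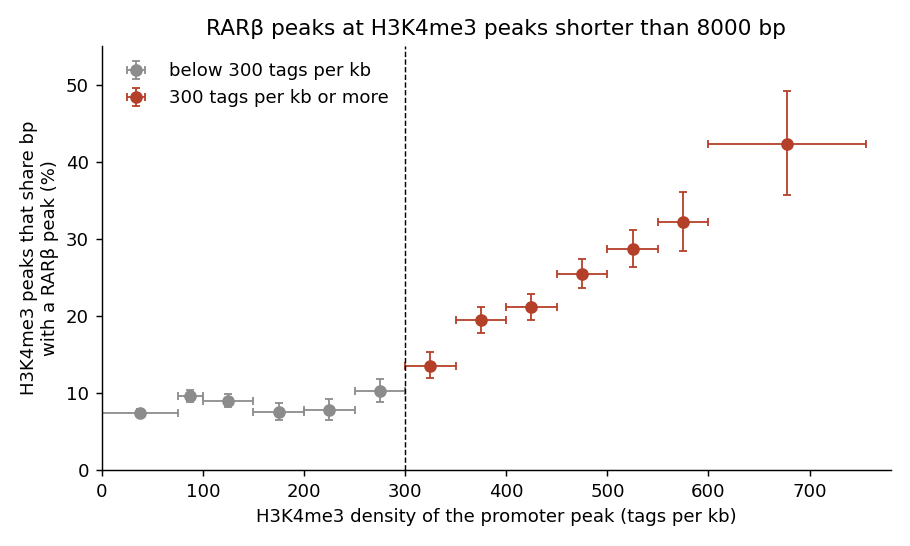
Share of H3K4me3 peaks shorter than 8000 bp that share at least 1 bp with a RARβ peak (y axis, percent) against H3K4me3 density (x axis, tags per kb). Points are density classes, horizontal bars their width and vertical bars Wilson 95% intervals; grey classes lie between 7.42% and 10.2%, and red classes, at 300 tags per kb or more, run from 13.5% to 42.3%.

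The least dense and the densest promoters were also compared among promoters of like length. The 10189 dense promoters were divided into 5 groups by length, and each of these into 5 by density. Only the lowest and highest density sets of each length group were compared. In the shortest group, of up to 2428 bp, RARβ was found at 10.0% of the promoters in the least dense set (Wilson 95% interval 7.49 to 13.3) and at 17.6% (14.3 to 21.6) in the densest. In the middle group, of 2868 to 3427 bp, the shares were 13.7% (10.7 to 17.4) and 28.7% (24.5 to 33.2). In the longest group, of 4396 to 7998 bp, they were 25.7% (21.7 to 30.2) and 44.6% (39.9 to 49.5). The densest set had the higher share in all 5 length groups, with intervals that did not overlap in any of them. RARβ summits were also counted per length of marked DNA, with the promoters divided into 10 equal groups by density alone. The least dense group had 41.8 summits in each Mb (exact Poisson 95% interval 35.1 to 49.4), the densest group 97.0 (87.5 to 107).

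Strongly and weakly tagged RARβ peaks were counted separately in these 10 groups. A RARβ peak of 20 or more tags was found at 0.883% of the promoters in the least dense group (Wilson 95% interval 0.465 to 1.67) and at 5.89% of the densest (4.60 to 7.51). A RARβ peak of fewer than 10 tags was found at 6.18% (4.86 to 7.83) and 11.8% (9.94 to 13.9). For both kinds the share was higher in the densest group, with intervals that do not overlap. The 8 groups between them lay at 6.97% to 9.72% for these weakly tagged peaks. At a depth of 2237580 tags a site with fewer than 7 tags was not in the list, so an empty promoter is one at which no RARβ peak was detectable. Where the local background was higher a call needed more tags, so this limit was not the same at every promoter.

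Length was also related to the share. Without regard to density, 13.2% of the promoters in the shortest of 5 groups by length held RARβ and 36.0% of those in the longest. Per length the contrast was smaller, at 63.4 summits in each Mb of the shortest group (exact Poisson 95% interval 56.1 to 71.4) and 77.9 (72.8 to 83.2) in the longest. Dense promoters with RARβ had a median of 1659 H3K4me3 tags, a density of 455 tags per kb and a length of 3588 bp. The 7891 without it had medians of 1311 tags, 427 tags per kb and 3012 bp.

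RARβ peaks at dense promoters had few tags. The median was 11, with quartiles of 8 and 15 and a range of 7 to 67. In all, 375 of the 2503 had 7 tags, the fewest in the list, and 862 had 10 to 14. At the upper end, 328 had 20 or more tags, a share of 13.1% (Wilson 95% interval 11.8 to 14.5). The share over all RARβ peaks was 11.1%, so this one lay little above it. It was 11.7% (10.5 to 13.1) at weakly marked peaks, 18.9% (15.7 to 22.5) in H3K4me3 peaks of 8000 bp or more, and 7.31% (6.41 to 8.33) outside the mark. The dense and the weakly marked sites therefore overlapped at this threshold, and both lay above the sites outside. Peaks with 7 tags were fewer than at weakly marked ones, with Wilson 95% intervals of 13.6 to 16.4 and 19.6 to 23.0 percent. Background, and with it the tags needed for a call, also differed between these classes.

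**Figure D2:**
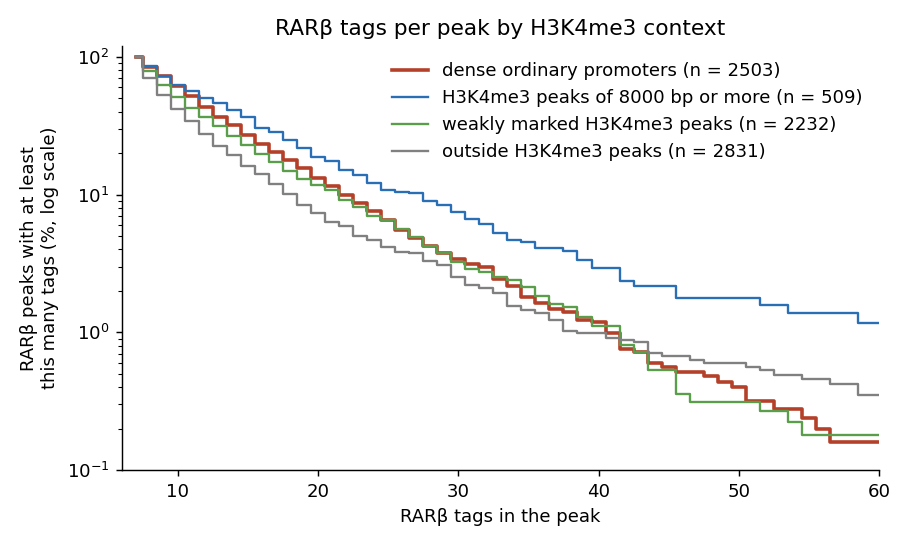
Percent of RARβ peaks (y axis, log scale) with at least the number of RARβ tags on the x axis, for 4 classes of RARβ peak. At 20 tags the line of the dense ordinary promoters stands at 13.1%, close to the weakly marked peaks at 11.7%, below the H3K4me3 peaks of 8000 bp or more at 18.9% and above the peaks outside the mark at 7.31%.

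Fold enrichment, which the authors' peak caller gives as the tag pileup at the summit over the local background, had a median of 18.24 at dense promoters (quartiles 13.42 and 23.21). It was 22.99 (17.88 and 28.1) at weakly marked peaks, 21.89 outside the mark and 17.88 in H3K4me3 peaks of 8000 bp or more. The quartile ranges of dense and weakly marked sites overlapped. Background at these sites also differed. The caller uses the highest of a genome-wide value, set by the depth of the RARβ library, and local values from the control. Where it used the genome-wide value, fold moved in steps of 3.87. Fold lay within 0.01 of such a step at 15.7% of the dense promoter sites (Wilson 95% interval 14.3 to 17.2), at 42.3% of the weakly marked ones (40.3 to 44.4) and at 38.5% of those outside. The other dense promoter sites had a higher, local value. Where the genome-wide value was used, fold took only those steps, so the shared median of 23.21 in these classes does not show equal enrichment. Where a local value was used, the median fold was 17.24 at dense promoters (n = 2110) and 20.02 at weakly marked peaks (n = 1288). The control kept 3703580 tags for an effective genome size of 1.87e+09 bp, so a local value can rest on few tags. How far local values lay above the genome-wide one over all sites was not determined. The fold values of RARβ and H3K4me3 at a site share 1 control library, and no relation between them is given.

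By RARβ tags, the median fold was 19.16 at 7 tags, 17.88 at 10 to 14, 24.8 at 20 to 29 and 59.4 in the 10 members with 50 or more. Peak length had medians of 538 bp at 7 tags, 731.5 bp at 10 to 14, 1097 bp at 20 to 29 and 1328 bp at 30 to 49. The FDR from the caller was at most 1% for 2482 of the 2503 (99.2%) and at most 5% for 2499 (99.8%). Over all RARβ peaks these shares were 98.8% and 99.8%, so the members were near them. The 4 members above 5% were among the most enriched sites. Their FDR values were 14.29, 12.5, 5.88 and 5.56 percent at peaks of 67, 62, 41 and 64 tags.

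The RARβ peak with the most tags at a dense promoter was chr2:144284225-144285436 (build mm9), with 67 tags (exact Poisson 95% interval 51.9 to 85.1). Its fold enrichment was 141.76. The summit lay 3 bp from that of an H3K4me3 peak of 2191 bp with 948 tags, a density of 433 tags per kb. Second was chr1:180248098-180250090, with 65 tags (50.2 to 82.8) and a fold of 57.47, in a promoter of 5309 bp with 2805 H3K4me3 tags. These intervals overlap widely, so the order of the leading sites is not fixed at this depth.

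Next came chr15:81701869-81703122 with 64 tags, 491 bp from the H3K4me3 summit. After it came chr5:25035408-25036365 with 62 tags and the highest fold of all members, 164.75, at a promoter of 541 tags per kb. The next 2, chr17:8475499-8477100 with 56 tags and chr4:128864829-128867392 with 55, had folds of 20.43 and 14.23, the first a little above and the second below the median of the members. Many tags thus did not always come with a high fold. The second of them was also the longest member, at 2564 bp. The remaining 4 had 50 to 54 tags. They were chr5:125869785-125871024, chr15:72920524-72921553, chr12:3235209-3236069 and chr3:78948656-78951019. Of the 10, 9 were alone in their promoter, 6 lay in promoters above the members' median density and 4 had their summit within 250 bp of the H3K4me3 summit.

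Among the 5 members with the highest fold, 2 were already among those 10. The others were chr4:94223268-94223931 with 41 tags and a fold of 123.81, chr8:126001501-126002355 with 43 tags and 121.91, and chr4:45543915-45544885 with 43 tags and 109.47. Their promoters had 411, 562 and 535 H3K4me3 tags per kb.

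The densest promoters did not hold the strongest RARβ peaks. The densest with RARβ, chr9:62187659-62194698, had 5166 H3K4me3 tags over 7040 bp, a density of 734 tags per kb. Its RARβ peak had 8 tags (Poisson 95% interval 3.45 to 15.8). Next was chr17:5490760-5497213 at 716 tags per kb, with a RARβ peak of 33 tags (22.7 to 46.3) and a fold of 12.36. The third, chr6:18462717-18465823 at 710 tags per kb, held a RARβ peak of 9 tags. The next 2, chr3:51904858-51909816 and chr5:81447908-81454686, held RARβ peaks of 22 and 30 tags. Over all members 13.1% had 20 or more tags and 3.44% had 30 or more. The peaks of 22, 30 and 33 tags were thus among the more heavily tagged members. The 5 fold values lay between 6.81 and 21.46.

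Over all members RARβ tags were only weakly related to mark density. Spearman's rho was 0.118 and Pearson's r 0.106 across 2503 sites, all from the same pair of libraries at 1 depth, which are not independent. Divided into 10 groups by density, the members had a median of 10 tags in each of the 5 lower groups and 11, 11, 11, 12 and 11 in the 5 upper ones. The quartiles were 8 and 13 tags in the lowest group, of 300 to 354 tags per kb, and 9 and 18 in the ninth, of 524 to 560. The share with 20 or more tags was 8.37% (Wilson 95% interval 5.54 to 12.5) in the lowest group and higher in the ninth, at 50 of 250 (15.5 to 25.4 percent). It was 13.9% (10.2 to 18.8) in the highest, an interval that overlaps those of both the lowest and the ninth group.

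**Figure D3:**
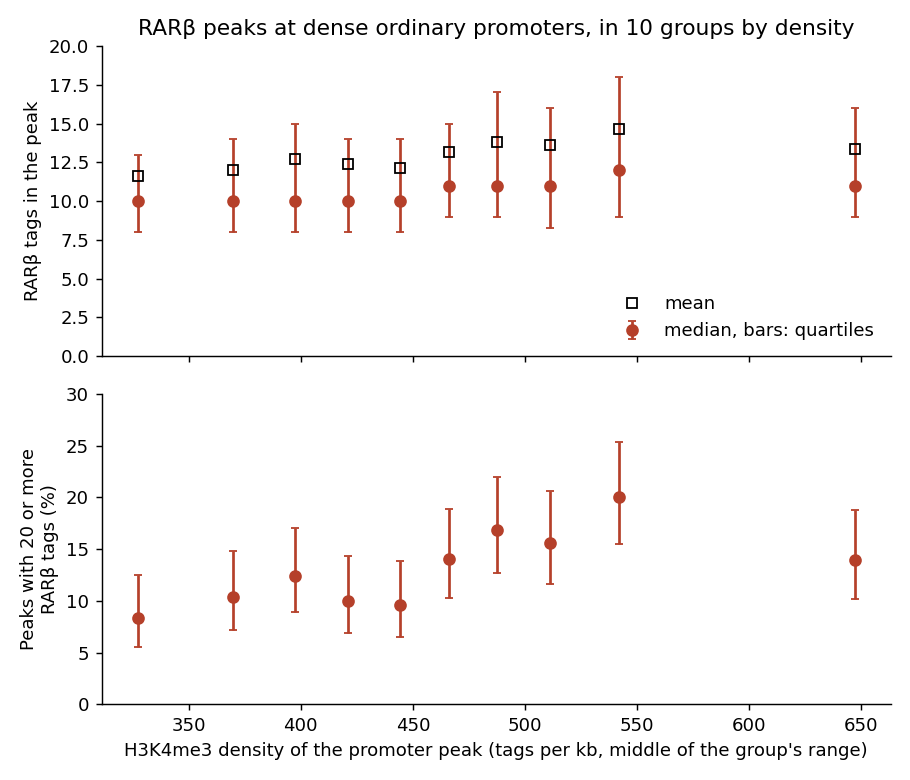
RARβ peaks at dense ordinary promoters in 10 groups of 250 or 251 by H3K4me3 density (x axis, tags per kb). The upper panel gives the median RARβ tags with quartiles and the mean (squares), with medians of 10 to 12, and the lower panel the percent with 20 or more tags with Wilson 95% intervals, 8.37% in the lowest group and highest in the ninth, where 50 of 250 had 20 or more.

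The relation was of like size with RARβ tags taken per kb of RARβ peak (rho 0.0954) and among members with more than 7 tags (rho 0.125, n = 2128). By promoter length, rho was 0.171 in the shortest of 5 groups and 0.0609 in the longest. RARβ fold went the other way, with a rho of -0.114 and medians of 19.35 in the lowest density group and 16.34 in the highest. Beside this, the share of sites with the genome-wide background was 24.7% in the lowest group and 8.76% in the highest. Its part in the relation of fold or of tags to density was not tested. Among the 393 members with that background, rho of tags with density was 0.0392, and among the 2110 with a local background it was 0.108. For the weakly marked sites that rho was -0.00663 (n = 2232), and for those in H3K4me3 peaks of 8000 bp or more 0.0831 (n = 509).

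The RARβ summit lay inside the H3K4me3 peak at 2496 of the 2503 sites, and 2480 RARβ peaks lay in it whole. The median distance between the summits was 386 bp, with quartiles of 145.5 and 735.5 bp, or 10.4% of the length of the promoter peak. RARβ summits rest on few tags, a median of 11 per peak, with a fragment size of 216 bp from the caller. How precisely they are placed was not determined, so small distances are not exact. At most 250 bp lay between them at 898 sites, a share of 35.9% (Wilson 95% interval 34.0 to 37.8). The share over all RARβ peaks that overlap H3K4me3 was 37.5%, so the members as a whole were near it. At 131 sites, 5.23%, the summits were more than 2000 bp apart.

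Counted in steps of 100 bp, RARβ summits were most frequent next to the H3K4me3 summit. There were 482 (Poisson 95% interval 440 to 527) at 0 to 99 bp, 299 (266 to 335) at 100 to 199 bp and 228 (199 to 260) at 200 to 299 bp. At 300 to 399 bp the number was 280 (248 to 315), before 216, 180 and 150 in the next 3 steps. The numbers thus did not fall evenly with distance, and the interval of the fourth step overlapped those of the second and the third. The 2 members with both summits at the same base were chr19:6127484-6128656, with 23 RARβ tags and a fold of 61.3, and chr10:119128806-119129123, with 9 tags. The largest distance was 5617 bp, at chr7:139502400-139502946, in a promoter of 7970 bp.

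**Figure D4:**
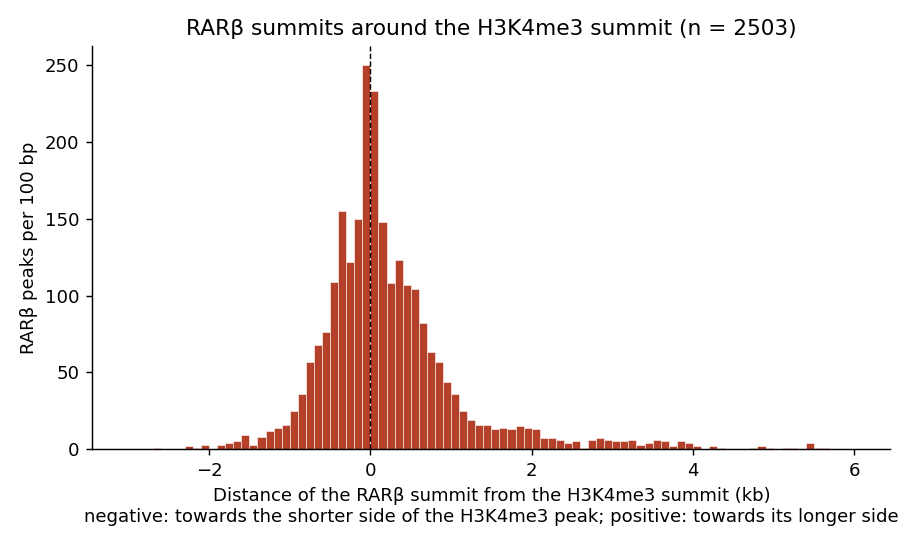
Number of RARβ summits per 100 bp (y axis) by distance from the H3K4me3 summit in kb (x axis), with positive values towards the side of the H3K4me3 summit on which the marked region is longer (2503 sites). The highest bars, of 250 and 233 sites, stand on either side of 0, and the tail beyond 2 kb lies nearly all on the longer side.

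H3K4me3 peaks were lopsided around their summit, with medians of 2268 bp on the longer side and 1365 bp on the shorter. Near the summit RARβ lay on the longer side about as often as on the shorter. Of the sites up to 100 bp away, 48.0% lay on the longer side (Wilson 95% interval 43.6 to 52.5), and of those at 250 to 500 bp 47.5% (43.6 to 51.5). At 500 to 1000 bp the share was 57.0% (53.0 to 60.9), at 1000 to 2000 bp 71.0% (65.1 to 76.2) and beyond 2000 bp 94.7%. At most sites the shorter side ends before 2000 bp, so there is little marked DNA on it beyond that distance. Without an annotation the sides could not be assigned to the upstream or downstream direction of a gene. RARβ summits were spread more widely in the promoter than H3K4me3 summits. With each promoter peak cut into 5 equal parts, the 2 outer parts held 13.6% of the RARβ summits and 4.25% of the H3K4me3 summits of the same sites. The middle part held 33.4% and 46.9%.

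Distance was related to promoter length, with a rho of 0.428 across the members. Over 5 groups by promoter length, the median was 198 bp in the shortest, of up to 2729 bp, and 813 bp in the longest, of 5496 bp or more. Taken as a share of the length these were 8.43% and 12.6%. The members as a whole had a larger median distance than weakly marked sites, 386 against 277 bp, but their promoters were longer. Among H3K4me3 peaks of like length the order of the medians was the opposite. At 2000 to 3000 bp the median was 232 bp at dense promoters (n = 665) and 323.5 bp at weakly marked ones (n = 418). The share within 250 bp was 52.3% (Wilson 95% interval 48.5 to 56.1) and 37.3% (32.8 to 42.1). At 1400 to 2000 bp, with 53 dense promoter sites, it was 73.6% (60.4 to 83.6) and 47.2% (43.6 to 50.9). At 3000 to 4000 bp the medians were 367 and 515 bp, with shares of 36.3% (32.8 to 39.9) and 28.4% (22.1 to 35.6), and at 4000 to 8000 bp 608 and 762 bp, with 23.8% (21.4 to 26.4) and 25.4% (19.8 to 31.9). The intervals of the shares were apart in the shorter length classes and overlapped in the 2 longer ones. Over all lengths, the H3K4me3 peaks of weakly marked sites had medians of 156 tags and 15.2% FDR, against 1711 tags and 3.36% for members. Their summits thus rest on fewer tags, and the part of this in the distances was not tested.

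RARβ tags differed little with distance. The median was 11 tags at up to 100, at 100 to 250 and at 250 to 500 bp, and 10 tags at each greater distance. The share with 20 or more tags was 12.4% at up to 100 bp, 14.8% at 500 to 1000 bp and 9.16% among the 131 sites beyond 2000 bp.

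Most promoters held a single RARβ peak, as called. The RARβ peaks had a median length of 687 bp, and whether 1 called peak covers several binding sites was not examined. Of the 2298 with RARβ, 2113 held 1, 167 held 2, 16 held 3 and 2 held 4. Those with 2 or more made up 8.05% (Wilson 95% interval 7.01 to 9.23) and held 390 of the members, 15.6%. This share was not computed for other H3K4me3 peaks. Over all of them, 5244 RARβ peaks lay at 4704 H3K4me3 peaks. By most shared bp, 2232 RARβ peaks were assigned to weakly marked peaks and 509 to H3K4me3 peaks of 8000 bp or more. The H3K4me3 peaks of these classes that shared any bp with RARβ numbered 2119 and 287. Some of them may share bp only with a RARβ peak assigned elsewhere. Sharing went with length. Of the 5 groups of dense promoters by length, it was found at 1.11% of the holding promoters in the shortest and at 18.5% (15.9 to 21.5) in the longest. Of the 10 groups by density, it was found at 5.34% (2.61 to 10.6) in the least dense and 11.3% (8.41 to 15.1) in the densest, intervals that overlap. The median promoter length was 3459 bp with 1 RARβ peak and 5452 bp with 2, and the median density 453 and 468 tags per kb.

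Neighbouring summits in a shared promoter were 1315 bp apart at the median (205 neighbouring pairs, quartiles 919 and 2095 bp), and at least 394 bp apart. At the 167 promoters with 2, the H3K4me3 summit lay between the RARβ summits in 92 (55.1%, Wilson 95% interval 47.5 to 62.4). The RARβ peak with more tags had a median of 13 and the other of 8. The one nearer the H3K4me3 summit had more tags in 90 of the 167 and as many in 21. Members that share a promoter had a median of 10 tags, against 11 for those alone, and lay farther from the H3K4me3 summit, at a median of 865.5 against 351 bp. Summits at least 394 bp apart cannot both lie at the H3K4me3 summit, and shared promoters were also longer. Whether the distances differ beyond this was not tested.

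The promoters with the most RARβ peaks were chosen by number and then by summed tags. Both with 4 were on chromosomes 19 and 15. At chr19:10526854-10533403, with 3434 H3K4me3 tags, the RARβ peaks had 9, 7, 12 and 38 tags in order of position. The strongest, with a summit 2994 bp from the H3K4me3 summit, ran over the edge of the promoter peak. At chr15:78257495-78263151, with 2478 H3K4me3 tags, the 4 had 10, 9, 9 and 7 tags, with intervals that all overlap. The next 3 promoters held 3 each. At chr12:103365471-103371916 the tags were 11, 11 and 38, with the strongest peak 2930 bp from the H3K4me3 summit. At chr9:43891306-43898895 they were 9, 24 and 26, and at chr10:13683486-13690334 they were 11, 17 and 23. The peak with the most tags was the one nearest the H3K4me3 summit on chromosomes 10 and 15, at 248 and 465 bp, and the farthest on chromosomes 19, 12 and 9. On chromosomes 9, 10 and 15 its interval overlapped that of the peak with the next most tags.

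**Figure D5:**
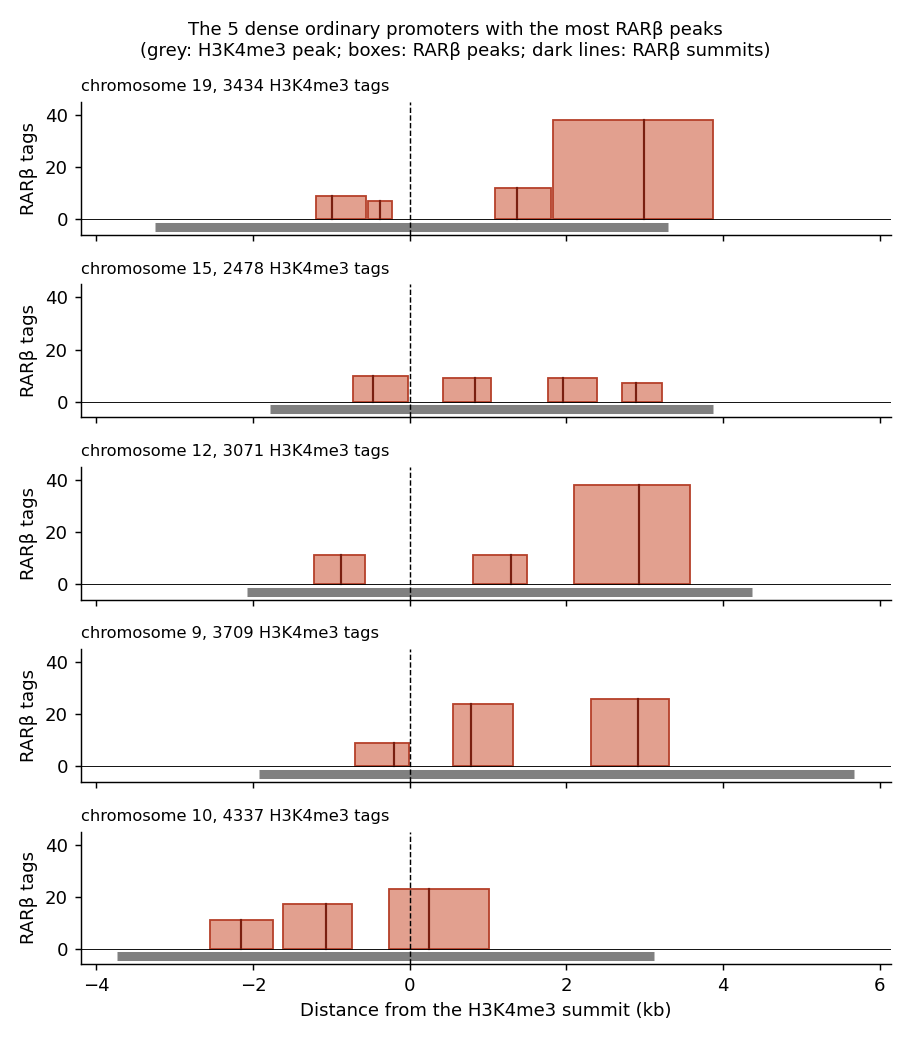
The 5 dense ordinary promoters with the most RARβ peaks, with distance from the H3K4me3 summit in kb on the x axis and RARβ tags on the y axis. Grey bars are the H3K4me3 peaks, boxes the RARβ peaks and dark lines their summits; on chromosomes 19 and 12 a RARβ peak of 38 tags lies about as far from the H3K4me3 summit, at 2994 and 2930 bp.

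The limits of the rule separate sites of nearly equal mark. Just inside the density limit were 2 RARβ peaks of 10 and 13 tags in a promoter on chromosome 10 and 1 of 8 tags on chromosome 17, at 300.4 to 300.7 H3K4me3 tags per kb. Just outside were RARβ peaks of 10, 7 and 7 tags on chromosomes 2, 9 and 13, at 299.3 to 299.7. At the length limit, members of 14, 8 and 20 tags lay in promoters of 7998 and 7993 bp, and dense H3K4me3 peaks of 8002, 8007 and 8008 bp held RARβ peaks of 9, 9 and 37 tags.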

How the data were processed

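Per the file headers, MACS 1.4.2 called each library's peaks without pooling and against 1 shared control library, at a p cutoff of 1e-05, a band width of 300 bp and with at most 1 tag kept per position. The antibody of the control is not given in the sources used here, so whether it is the anti-GFP library is not known, and fold and calls are relative to it. The submitters' processing notes name CASAVA 1.8.2, Bowtie and mm9. For RARβ the control was scaled down, and for H3K4me3 it was scaled up to 12.8 times its 3703580 filtered tags, so the H3K4me3 background rests on few tags. Local values of the RARβ background can rest on few control tags too.

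Tag counts per peak were deposited by the authors without normalization. Fold enrichment is a ratio deposited by the authors' caller. The score, deposited under a lost column name, was taken as -10 times log10 of the p-value from the column order. The empirical FDR was deposited in percent. Length and summit were deposited in bp, with summits counted from 1 at the peak start.

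Where a RARβ peak shared bp with several H3K4me3 peaks (2 members did), the one with the most shared bp was used. Density is H3K4me3 tags over length in kb. Wilson 95% intervals were computed for shares and exact Poisson 95% intervals for counts, with Python 3.11.15, numpy 2.4.6, pandas 2.3.3, scipy 1.17.1 and matplotlib 3.10.9. The overlap code was tested on simulated data. The members and lists were chosen with earlier results of these data known. Named sites follow a written rule: the 10 members with the most tags, the 5 with the highest fold, the 5 densest promoters, the 5 promoters with the most RARβ peaks, the 5 smallest and 5 largest distances, given here by their extremes, and the 3 on each side of each limit. Sequence and gene annotation of build mm9 were not used here, so the planned start-site, gene-list and motif descriptions were not made and no sequence is shown. The anti-GFP library was left out for lack of a file here.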

Additional observations from a re-analysis of the deposited data

How the results depend on the processing

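Of 72 alternative values from 12 settings, 53 stayed within the 95% interval of the value reported, or within 1.5 times it for the number of sites. Several settings could hardly move a value, because nearly all 2503 sites stayed. A RARβ summit required within the mark left 2496, and choosing the densest H3K4me3 peak where several overlapped left 2503. An H3K4me3 FDR limit of 5% left 2483, removal of the most heavily tagged RARβ peaks 2484, and autosomes alone 2482. Every value from these settings was among the 53, so that count says little about robustness. With 200 or 400 tags per kb the share of promoters with RARβ was 19.4% and 25.7%. With a length below 5000 bp it was 19.95%, the share with 2 or more RARβ peaks 4.07% and the median distance 327.5 bp. With a RARβ score of at least 100 there were 661 sites, at 6.31% of the promoters, 2.80% of which held 2 or more, with medians of 19 tags and 26.82 fold and a rho of tags with density of 0.177. With only RARβ peaks at the genome-wide background, an alternative chosen after seeing the data, there were 393 sites at 3.73% of the promoters, 2.89% of which held 2 or more. Their medians were 9 tags, 23.21 fold and 453 bp, and rho was 0.0392. These 2 settings keep fewer RARβ peaks by construction. With fold in place of tags the relation to density turned to -0.114; the cause was not tested. Depth limits the list to sites of 7 or more RARβ tags. No paired analysis was possible because there was 1 library per antibody.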

Other observations

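Dense promoters on the X chromosome, which male mice carry in 1 copy, had a lower share with RARβ than those on autosomes, which was not tested over replicates. Of 205 such promoters on X, 19 held a RARβ peak, 9.27% (Wilson 95% interval 6.01 to 14.0), against 2277 of 9981 on autosomes, 22.8% (22.0 to 23.6). The single autosomes lay between 19.8% on chromosome 13 and 27.3% on chromosome 15. Promoters on X were also less dense, with a median of 338 against 434 H3K4me3 tags per kb. At 300 to 350 tags per kb the shares were 5.60% (2.74 to 11.1) of 125 on X and 14.1% (12.4 to 16.0) of 1416 on autosomes. At 350 to 400 tags per kb they were 12.1% (6.27 to 22.1) of 66 and 19.7% (18.0 to 21.4) of 2025, with intervals that overlap. Above 400 tags per kb X had 14 promoters, 4 of them with RARβ, 28.6% (11.7 to 54.6), against 25.7% on autosomes. The 19 RARβ peaks on X had 7 to 30 tags with a median of 8, against 11 on autosomes. In males, copy number and binding per copy cannot be told apart on X.

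Another RARβ summit lay within 10 kb of 587 members, 23.5% (Wilson 95% interval 21.8 to 25.2). The share was 30.9% at weakly marked sites, 22.3% (20.8 to 23.9) outside the mark and 72.5% in H3K4me3 peaks of 8000 bp or more. Within 2 kb it was 11.7% at dense promoters and 11.6% at weakly marked sites. A further H3K4me3 peak lay within 2 kb of 15.6% (14.2 to 17.2) of the dense promoters with RARβ and of 12.6% (11.8 to 13.3) of those without.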
